A study of Mus musculus with 9 samples.

Results

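Of 601 genes whose RNA was higher in stimulated mouse mast cells than in unstimulated ones, 143 were not lower by more than a small margin when the cells also received luteolin, a plant flavone. These 143 genes are the members described here, and the other 458 of the 601 were lower with luteolin. RNA sequencing was done on bone marrow-derived mast cells (BMMCs), grown from marrow of C57BL/6 mice for at least 4 weeks in medium with 30% WEHI-3 conditioned medium, a source of IL-3, and 20% FBS. The 9 libraries fell into 3 groups of 3. Control cells were untreated, BSA cells were stimulated through IgE with antigen coupled to bovine serum albumin, and BSA + luteolin cells received the same stimulus and luteolin at 10 uM for 24 h. The order of luteolin and antigen was not clear from the sources used here. The cells of all 3 groups were primary cultures, and nothing in the labels says that the 3 libraries of a group came from separate mice or cultures. Tests between groups then measure only the spread between these libraries.

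Members were chosen by measured values. Counts were scaled to CPM, read counts relative to library size, with TMM factors over all 9 libraries, and 11569 of the 47643 genes in the table had a median CPM above 1. A gene was taken as higher in BSA if its mean was at least 1.5 times the Control mean and its lowest BSA library exceeded its highest Control library. A member also had a log2 ratio of mean BSA + luteolin to mean BSA at or above -0.25. Across all tested genes, 19.1% had all 3 BSA libraries above all 3 Control libraries. Both conditions use the BSA libraries, and all 9 libraries took part in the choice. The levels, ratios and counts of tests over the members are therefore descriptions, and none of them is a test of the choice.

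Mast cells carry IgE on the high-affinity receptor FcεRI, and antigen that crosslinks this IgE starts kinase, calcium and MAP kinase signals. These signals release stored granules within minutes, and transcription of early-response factors such as the Fos, Jun, Egr and Nr4a families, and of cytokines and chemokines, follows. Slower changes touch receptors, adhesion molecules, metabolism and protein synthesis. Luteolin is known as an inhibitor of several kinases in this signalling.

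The early-response transcription factors on the list used here were not among the members. That list was written with earlier results of these data known. Of a list of 25 tested early-response transcription factors, 22 met the conditions for being higher in BSA and 0 were members. edgeR's quasi-likelihood test called 17 of the 25 higher in BSA than in Control, and it called all 25 lower in BSA + luteolin than in BSA. Over all tested genes these shares were 2.26% and 21.7%. Nr4a3, an orphan nuclear receptor, had CPM values of 24.3, 27.1 and 35.3 in Control, 698, 576 and 740 in BSA, and 35.8, 48.4 and 59.6 in BSA + luteolin. Of 24 tested cytokine and chemokine genes, 20 were higher in BSA by the same conditions and 1, Il3, was a member. Tnf, the gene of tumor necrosis factor, had 22.3, 11 and 10.3 CPM in Control, 764, 814 and 700 in BSA, and 42.9, 39.2 and 47.9 in BSA + luteolin. Csf2, which encodes GM-CSF, had a mean of 58.0 CPM in BSA and 4.28 CPM in BSA + luteolin. Of 33 tested feedback inhibitors of signalling, such as the dual-specificity phosphatases, 19 were higher in BSA and 0 were members. Of all 11569 tested genes, 601 met the conditions for being higher in BSA and 143 were members. The comparisons of BSA with Control and of BSA + luteolin with BSA share the BSA libraries.

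**Figure D1:**
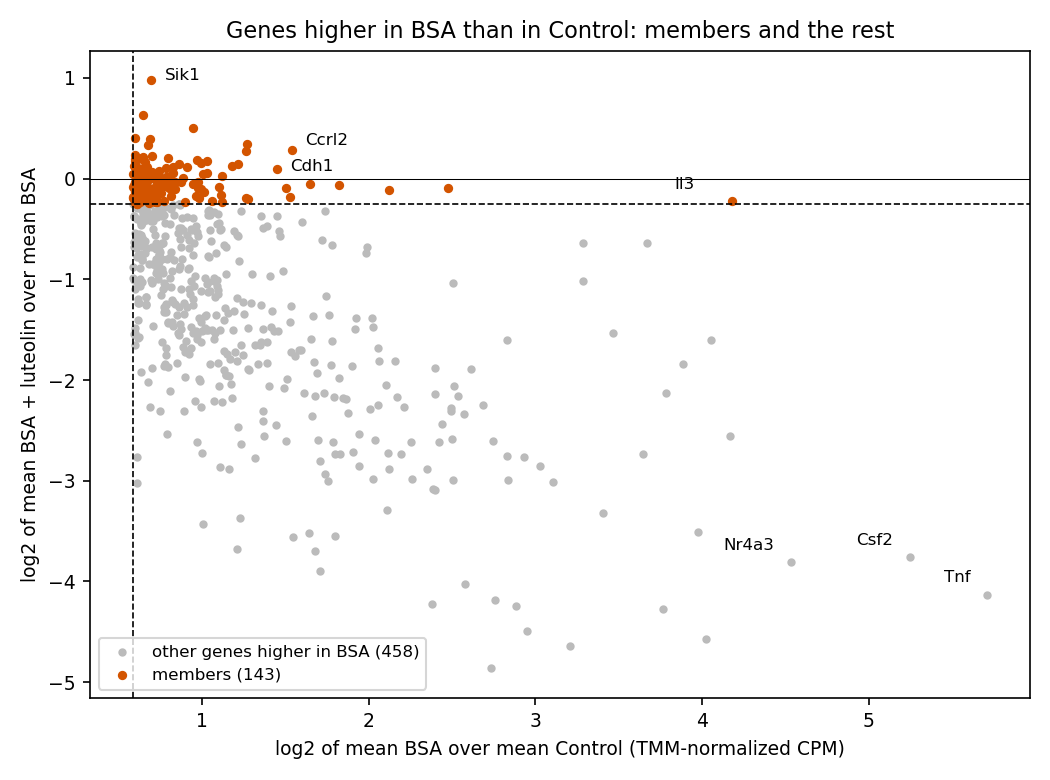
Each point is 1 of the 601 genes higher in BSA, with the log2 ratio of mean BSA to mean Control on the x axis and the log2 ratio of mean BSA + luteolin to mean BSA on the y axis. The 143 members (orange) lie above the dashed line at -0.25 and mostly at small BSA ratios, and the 458 other genes (grey), among them Tnf, Csf2 and Nr4a3, lie below it.

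The members' ratios of BSA to Control were smaller than those of the other genes higher in BSA. The median ratio over the members was 1.62, with a range from 1.502 to 18.2, and that over the other 458 genes was 1.99, up to 52.4. The member at 18.2 was Il3, which had 7, 0 and 0 counts in Control. The median log2 ratio of BSA + luteolin to BSA was -0.03 over the members and -1.26 over the other genes, and it was 0.06 over all tested genes. Mean BSA + luteolin was at or above mean BSA for 58 members (40.6%), against 57.7% of all tested genes. Members were also less abundant in Control, with a median Control mean of 9.89 CPM. It was 26.8 CPM for the other genes higher in BSA and 27.0 CPM for all tested genes. The rule used these Control values. A gene low in Control can pass the filter on median CPM through its BSA and BSA + luteolin libraries. This difference may therefore follow in part from the choice. Near the threshold on the ratio, Larp1, Atp2b1 and Rragb were just inside, each at 1.502, and Cldnd1 and Chek1 were just outside, each at 1.498. Near the threshold on luteolin, Lap3, Vav2 and Clic4 were just inside at log2 ratios of -0.249, -0.247 and -0.244, and Smo, Pola1 and Lrrc59 were just outside at -0.252, -0.253 and -0.254. The edge of the group is thus not a gap in the values.

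Libraries held 9515004 (Control 2) to 24605689 counts. By library size alone, without TMM factors, 3 counts corresponded to 0.122 to 0.315 CPM, a floor that covers counting error only. Mast cell markers were present in every library, with Cpa3 at 21000 to 34700 CPM and Kit at 1790 to 2400 CPM. Control 1 stood apart from the other Control libraries. Its mean Euclidean distance over log2 CPM was 68.0 to Control 2 and 3, 54.7 to the BSA libraries and 40.4 to the BSA + luteolin libraries.

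For most members Control 1 was nearer to BSA than the other Control libraries were. In Control 1 the median member was at 74.0% of its BSA mean, in Control 2 at 50.2% and in Control 3 at 55.5%. In the BSA + luteolin libraries it was at 96.4%, 96.9% and 98.3%. Over the other 458 genes the Control medians were 48.2%, 48.4% and 49.2%, close to each other. Control 1 lay above both other Control libraries for 115 members (80.4%), against 43.7% of the other genes higher in BSA and 50.2% of all tested genes. It reached 75% or more of the BSA mean for 68 members (47.6%), against 6.99% of the other genes and 78.8% of all tested genes. The BSA mean was at least 1.5 times Control 1 for 43 members (30.1%), for 84.9% of the other genes and for 13.8% of all tested genes. By the rule, all BSA libraries of every member lay above all its Control libraries, Control 1 included, so what differed was the size of the ratio.

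**Figure D2:**
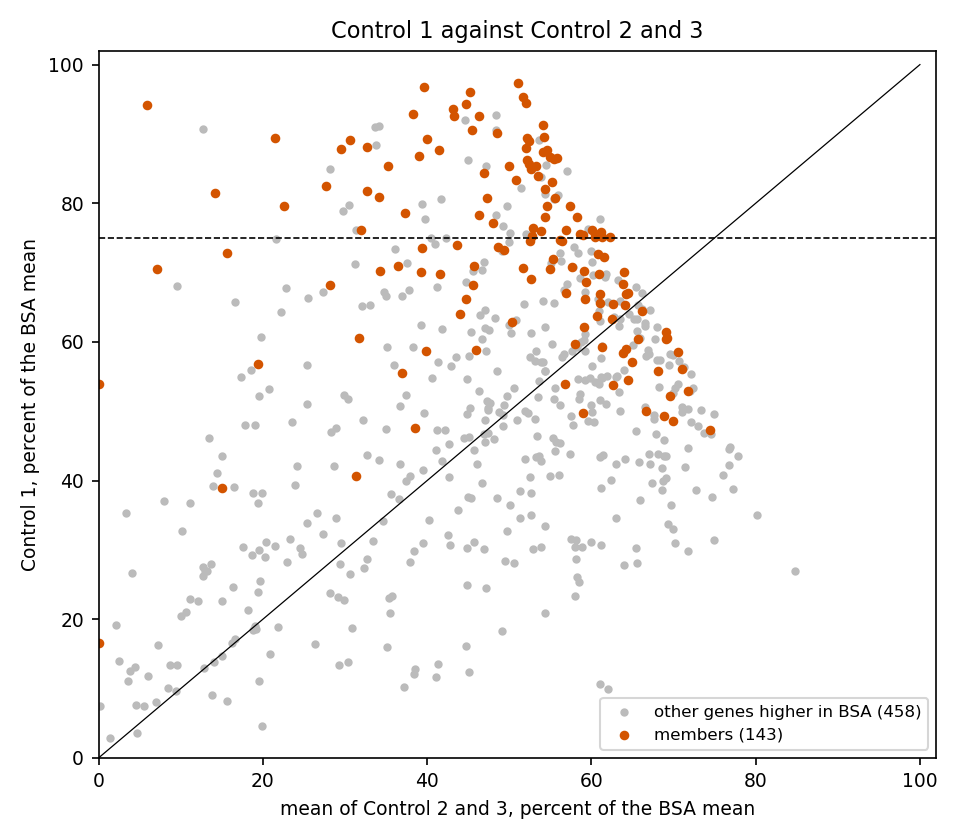
Each point is a gene, with the mean of Control 2 and 3 on the x axis and Control 1 on the y axis, both as percent of the gene's BSA mean. The solid line marks equal values and the dashed line 75%. Of the 143 members (orange), 115 had Control 1 above both other Control libraries, and 68 lie at or above the dashed line.

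The genes were also chosen without a Control library, and that library was then read, with CPM scaled over all 9 libraries throughout. Without Control 1 the conditions picked 1000 genes, and the BSA mean was at least 1.5 times Control 1 for 33 of them (3.30%), against 14% of all tested genes. With the scaling recomputed on the remaining 8 libraries they picked 909. Without Control 2 they picked 115 genes, of which 81 (70.4%) met the condition in Control 2, and without Control 3 they picked 156, of which 85 (54.5%) met it in Control 3. The shares over all tested genes were 15.9% and 12.4%. Each of these ratios reuses the BSA mean that chose the genes, so the share over all genes is not the value that no change would give, and the shares are descriptions.

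Marker genes of more than 1 cell type differed between the same libraries. The summed level of 12 neutrophil marker genes was 332 CPM in Control 1, 23.3 and 23.6 CPM in Control 2 and 3, 251 to 272 CPM in BSA and 289 to 329 CPM in BSA + luteolin. None of the 12 was at 0 in every library, while Camp and Elane were at 0 in Control 2 and Ltf in Control 3. S100a8 was at 61.8 CPM in Control 1 and at 0.972 and 0.637 CPM in Control 2 and 3. Some basophil and eosinophil markers had the same pattern. Mcpt8, of the basophil list, was at 442 CPM in Control 1, 19.9 and 18.1 CPM in Control 2 and 3 and 288 to 379 CPM in the other libraries, and Prg2, of the eosinophil list, was at 32.3, 0.0884 and 0 CPM in Control and at 13.6 to 23.7 CPM in the others. Others of these lists, such as Cd200r3 at 704, 954 and 988 CPM in Control and Siglecf at 4.23, 11.8 and 9.71 CPM, were lower in Control 1 than in Control 2 and 3. The summed levels of the 5 basophil markers were 2005, 1631 and 1661 CPM in Control and 1492 to 1910 CPM in the other libraries, and those of the 8 eosinophil markers were 58.3, 32.9 and 24.4 CPM and 44 to 53.3 CPM. Mcpt4, a chymase of mature mast cells, was at 1790 CPM in Control 1, 184 and 190 CPM in Control 2 and 3, 1010 to 1180 CPM in BSA and 1390 to 1620 CPM in BSA + luteolin. It was 1 of 14 mast cell markers, and their summed level was 96090 CPM in Control 1, 58820 and 62190 CPM in Control 2 and 3, and 69380 to 95730 CPM in the other libraries. Some of them were lower in Control 1 than in Control 2 and 3, with Kit at 1790 against 2100 and 2400 CPM, Tpsab1 at 412 against 669 and 673 CPM and Mitf at 72.6 against 103 and 109 CPM. Members Csf3r, the receptor of G-CSF, and Mmp8, a collagenase stored in neutrophils, belong to the neutrophil set. In bulk RNA, more cells of a type and more RNA per cell cannot be told apart. The part of other cells in the members' values was not tested.

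**Figure D3:**
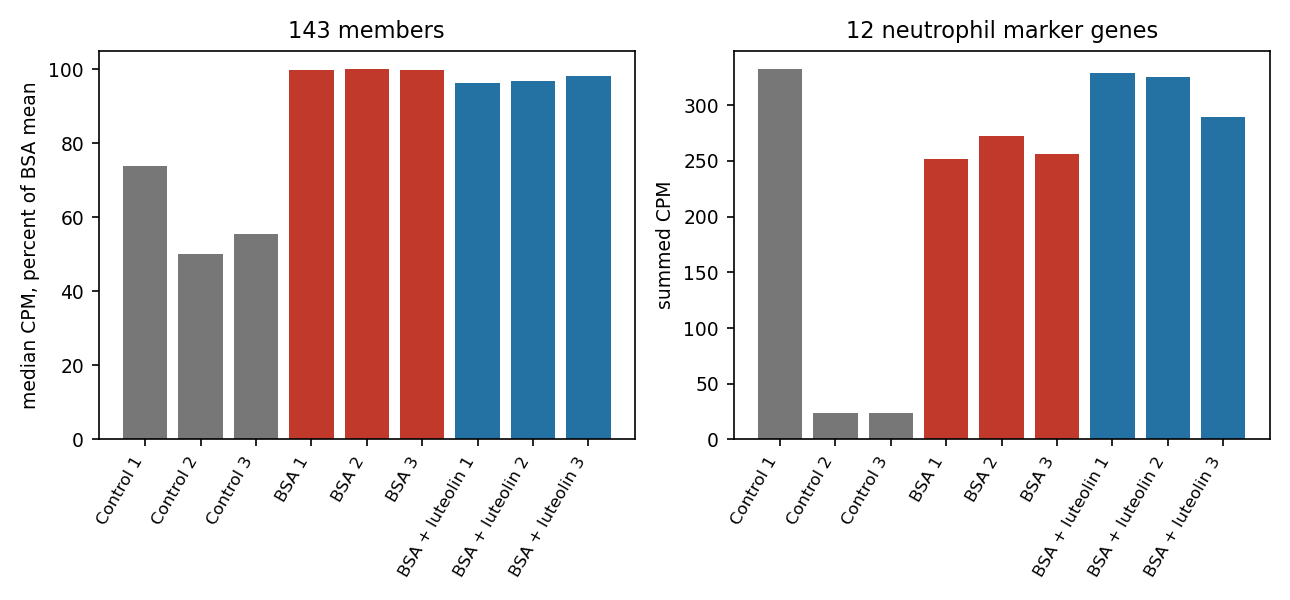
Bars give 1 value for each of the 9 libraries. The left panel shows the median over the 143 members of CPM as percent of the BSA mean, and the right panel the summed CPM of 12 neutrophil marker genes. Control 1 stands above Control 2 and 3 in both panels, at 74.0% against 50.2% and 55.5%, and at 332 CPM against 23.3 and 23.6 CPM.

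The BSA mean was at least 1.5 times every Control library, Control 1 included, for 24 members (16.8%), against 301 (65.7%) of the other genes higher in BSA and 2.83% of all tested genes. These 24 were singled out after their values were seen. They include the receptors Ccrl2, Gpr65, Klrg1 and Colec12, the peptidase Dpp4, the growth factors Il3 and Igf1, the matrix enzyme Lox, the NADPH oxidase subunit Cybb, the small GTPase Rap1b, the kinase A regulatory subunit Prkar2a, the acetyltransferase Naa50 and the chromatin protein Rif1. Several had few counts. Sept5, a septin, had 13, 0 and 0 counts in Control and 23 to 29 in BSA, and Olfml2b had 6 to 11 counts in Control and 24 in each BSA library.

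**Figure D4:**
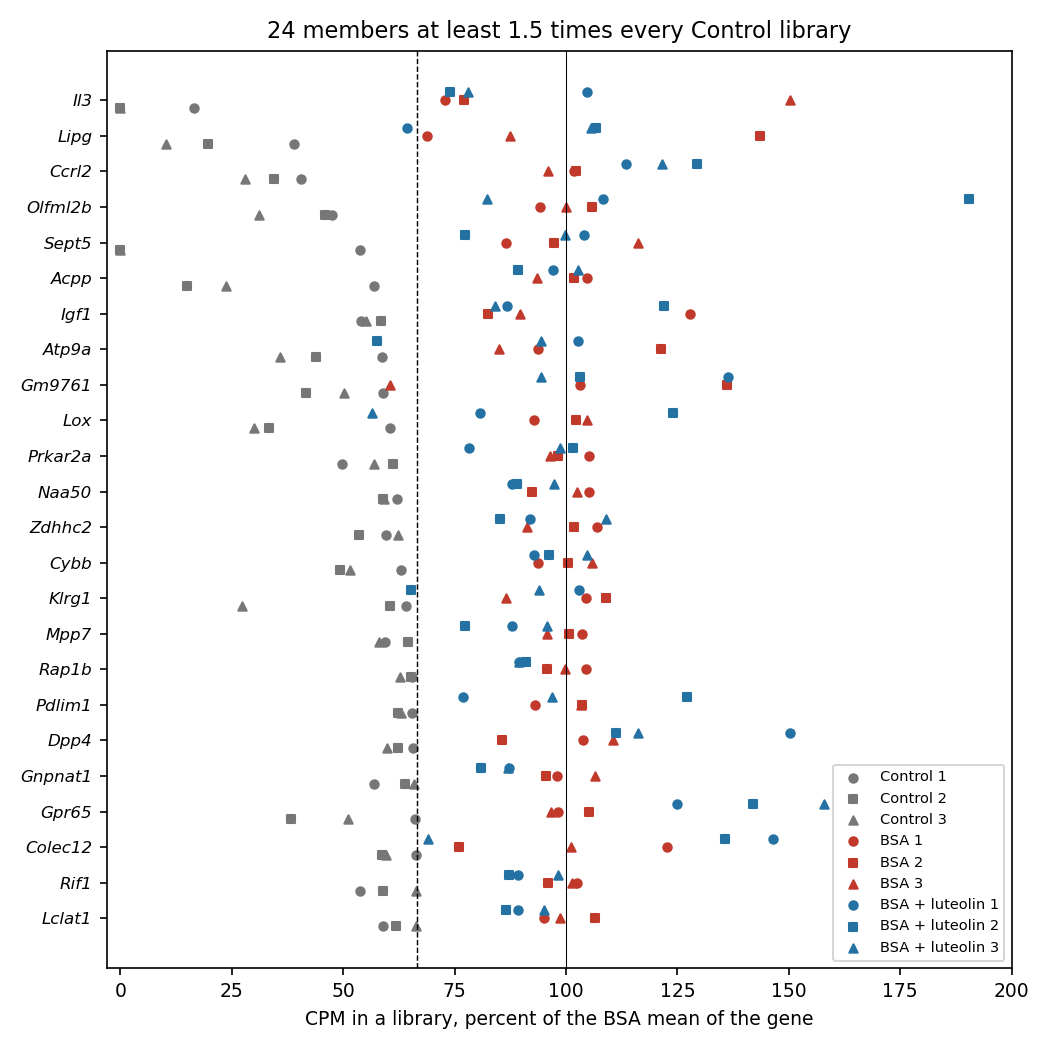
Each row is 1 of the 24 members whose BSA mean was at least 1.5 times every Control library, and the x axis gives the CPM in a library as percent of the gene's BSA mean. Grey, red and blue points are Control, BSA and BSA + luteolin libraries, the dashed line marks the BSA mean divided by 1.5, and all grey points lie on its left. The blue points of Ccrl2, Gpr65 and Dpp4 all lie to the right of the red ones.

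Among members with a BSA mean of at least 5 CPM, Ccrl2 had the highest ratio after Acpp. It encodes an atypical chemokine receptor that binds chemerin on mast cells and other leukocytes. In mm10 (GRCm38) the gene lies on the minus strand at chr9:111054486-111057519, in 3 exon blocks. Its CPM was 18.1, 15.4 and 12.5 in Control, 45.3, 45.5 and 42.7 in BSA, and 50.5, 57.6 and 54.1 in BSA + luteolin. The groups did not overlap, and the BSA + luteolin libraries were the highest. The means were 15.3 ± 2.81, 44.5 ± 1.54 and 54.0 ± 3.55 CPM (SD, n = 3), a BSA to Control ratio of 2.91 and a log2 ratio of BSA + luteolin to BSA of 0.28. Against Control 1 alone the BSA ratio was 2.46.

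Gpr65, a proton-sensing receptor coupled to cAMP, lies on the plus strand at chr12:98268635-98276644. Its CPM was 12.3, 7.16 and 9.55 in Control, 18.3, 19.6 and 18.0 in BSA, and 23.3, 26.5 and 29.5 in BSA + luteolin. The 3 groups followed each other with no overlap. The BSA ratio was 1.93, or 1.51 against Control 1, and the log2 ratio of BSA + luteolin to BSA was 0.50. An exon of Gpr65 overlaps an exon of a gene on the opposite strand.

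Sik1, a salt-inducible kinase of the AMPK family whose gene is a known target of cAMP signalling, had the highest luteolin ratio of the members. It lies on the minus strand at chr17:31844250-31855804. Its CPM was 14.4, 6.10 and 8.28 in Control, 15.6, 14.9 and 16.1 in BSA, and 25.2, 29.4 and 37.2 in BSA + luteolin. The luteolin libraries stood above all others, while Control 1 was near BSA. The log2 ratio of BSA + luteolin to BSA was 0.98, and the BSA mean was 1.08 times Control 1.

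**Figure D5:**
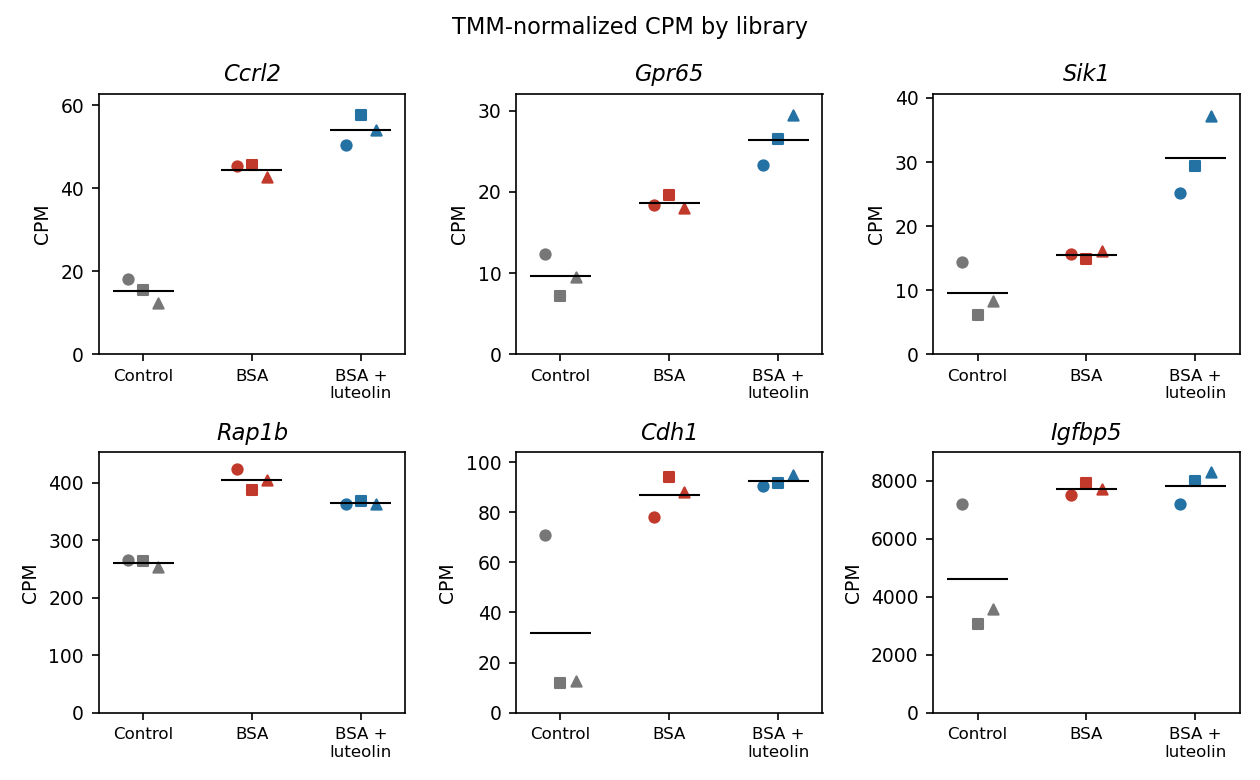
TMM-normalized CPM of 6 members in each library (circle, square and triangle for replicates 1, 2 and 3), with a line at the group mean and the y axis from 0. In Ccrl2, Gpr65 and Rap1b all Control libraries lie well below BSA, and in Sik1, Cdh1 and Igfbp5 Control 1 lies near BSA. In Ccrl2, Gpr65 and Sik1 all BSA + luteolin libraries lie above BSA.

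The RefSeq promoters of Ccrl2 and Gpr65 are shown because edgeR called both genes higher in BSA than in Control and higher again with luteolin, and that of Atf1 because it holds 3 of the motifs searched. Atf1, a CREB family factor, was among the members with the lowest luteolin ratio. Each sequence (GRCm38.p6) runs from 250 bases before to 50 bases after the start site, 5′ to 3′ on the gene's strand, with motif matches in capitals. The Ccrl2 window is chr9:111057469-111057768 (minus strand), and its capitals mark an NF-kB match that begins 56 bases before the start. The Gpr65 window is chr12:98268385-98268684 (plus strand), and its capitals mark TATAAA on the opposite strand, 175 bases before the start. The Atf1 window is chr15:100227609-100227908 (plus strand). Its capitals mark an NF-kB match, on the opposite strand, at -168, and the E-box CACGTG at -105. They also mark the EGR motif GCGTGGG, on the opposite strand, at -55.
Ccrl2: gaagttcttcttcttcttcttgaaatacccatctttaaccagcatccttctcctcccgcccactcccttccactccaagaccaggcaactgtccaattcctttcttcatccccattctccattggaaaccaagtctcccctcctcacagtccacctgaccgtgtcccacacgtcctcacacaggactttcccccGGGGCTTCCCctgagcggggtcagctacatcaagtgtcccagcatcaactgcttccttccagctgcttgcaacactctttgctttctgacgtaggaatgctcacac
Gpr65: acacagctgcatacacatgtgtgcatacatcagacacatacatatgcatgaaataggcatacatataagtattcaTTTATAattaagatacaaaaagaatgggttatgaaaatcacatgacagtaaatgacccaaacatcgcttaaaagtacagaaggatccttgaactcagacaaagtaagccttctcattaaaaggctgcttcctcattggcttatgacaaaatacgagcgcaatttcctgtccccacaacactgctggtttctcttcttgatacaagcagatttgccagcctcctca
Atf1: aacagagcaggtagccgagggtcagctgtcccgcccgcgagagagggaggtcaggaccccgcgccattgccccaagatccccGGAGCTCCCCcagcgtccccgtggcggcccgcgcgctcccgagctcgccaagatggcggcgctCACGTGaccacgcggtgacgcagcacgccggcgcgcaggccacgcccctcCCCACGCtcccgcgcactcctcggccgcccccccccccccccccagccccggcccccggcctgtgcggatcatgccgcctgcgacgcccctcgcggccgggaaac
The promoter of Sik1 was not among those used here.

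A promoter in the RefSeq table was matched for 105 of the 143 members, 73.4% and under the 80% needed for a check of the group, so a comparison of promoters is void and the shares below describe those 105 alone. Motifs were searched on both strands. The EGR motif GCGTGGG was in 14.3% of the 105 promoters, in 3.21% of 343 promoters of the other genes higher in BSA, in 8.52% of 9050 promoters of tested genes and in 5.04% of all 32851 promoters of the same length. It was found for Eif4e, Itga4, Clic4 and Foxk2, among others. The NF-kB motif was in 13.3% of the members' promoters, 13.4% of those of the other genes higher in BSA, 10.1% of those of tested genes and 8.46% of all. The AP-1 motif TGANTCA was in 8.57%, 7.58%, 4.77% and 7.81% of the same sets. TATAAA was in 9.52%, 14.3%, 6.67% and 13.6%. A match is a description of letters, not a bound site.

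Members were longer in the genome than the other genes higher in BSA. The median span from start to end of the gene was 36.4 kb for members, 18.6 kb for the other genes higher in BSA and 22.5 kb for all tested genes. The median number of exon blocks was 10, 6 and 9 in the same order, while the median exonic length was 4650, 4260 and 4390 bases and the median GC content 47.4%, 48.6% and 49.3%. Of the members, 136 (95.1%) were protein coding. The remaining 7 were 3 processed pseudogenes, 2 processed transcripts, 1 snoRNA and 1 antisense gene, and counts of pseudogenes can come from reads of their parent genes. Exons of 11 members overlap those of another gene on the same strand, Eif4e and Nupl1 among them, and 36 do so on the opposite strand. The strand setting of the counting was not given in the sources used here, so these counts carry that uncertainty. The members 4933431K23Rik and Ednra overlap each other on chromosome 8, the closest neighbours among the members.

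Among 25 members at the cell surface were adhesion molecules and receptors, with a median BSA to Control ratio of 1.86. The roles used for grouping were assigned after the members were known. Cdh1, which encodes E-cadherin, had 70.7, 11.8 and 12.8 CPM in Control, 78.1, 94.2 and 87.9 in BSA, and 90.6, 91.7 and 94.9 in BSA + luteolin. Its BSA mean was 2.73 times the Control mean, 1.23 times Control 1 and 7.035 times the mean of Control 2 and 3. Acpp, a transmembrane acid phosphatase, had 3.04, 0.795 and 1.27 CPM in Control, 5.6, 5.44 and 5 in BSA, and 5.19, 4.77 and 5.49 in BSA + luteolin. All 3 of its Control libraries were below all others, and the BSA ratio was 3.14 to the Control mean, 1.76 to Control 1 and 5.17 to the mean of Control 2 and 3. Itga4, the integrin chain of VLA-4, had 32.5, 29.3 and 34.9 CPM in Control, 53.2, 48.1 and 52.8 in BSA, and 43.0, 42.8 and 50.7 in BSA + luteolin, where 1 library reached into the BSA range. Tfrc, the transferrin receptor, was at 153, 75.6 and 77.7 CPM in Control, at 178, 162 and 165 in BSA, and at 161, 177 and 181 in BSA + luteolin. Csf3r was at 2.54, 0.354 and 0.159 CPM in Control and at 3.31 to 3.97 in BSA, from 51, 4 and 4 counts in Control.

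Il3 was the single member among the cytokines and chemokines of the list, and it had few reads. IL-3 is the growth factor that BMMC cultures depend on. Its gene had 7, 0 and 0 counts in Control, 34, 32 and 66 in BSA, and 46, 37 and 33 in BSA + luteolin. The BSA + luteolin libraries lay within the BSA range, and the 3 Control libraries were the lowest. In CPM the BSA values were 1.54, 1.63 and 3.17, and the BSA mean was 6.06 times Control 1. Ccl5, a chemokine outside the list, was at 6.77, 4.15 and 3.78 CPM in Control, 8, 8.49 and 8.70 in BSA, and 10.1, 6.92 and 7.98 in BSA + luteolin.

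The secreted members numbered 13. Igfbp5, an IGF-binding protein, was the most abundant member. It had 7210, 3072 and 3565 CPM in Control, 7493, 7915 and 7697 in BSA, and 7182, 7978 and 8300 in BSA + luteolin, so that Control 1 differed from BSA far less than Control 2 and 3 did. C3, the central complement protein, was at 94.4, 36.2 and 41.5 CPM in Control and at 108, 118 and 105 CPM in BSA. Penk, the enkephalin precursor, and Tgfbi, a matrix protein, had BSA ratios of 2.04 each against the Control mean, of 1.14 and 1.22 against Control 1, and of 3.38 and 3.06 against the mean of Control 2 and 3. Lipg, endothelial lipase, had 21, 6 and 7 counts in Control and 41, 76 and 49 in BSA. Igf1 had 0.896, 0.972 and 0.915 CPM in Control and 2.12, 1.37 and 1.49 in BSA, with the 3 Control libraries close to each other.

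Signalling members numbered 13. Rap1b, a small GTPase of integrin activation, lies on the minus strand at chr10:117813871-117846035. It was at 265, 264 and 254 CPM in Control, 423, 387 and 404 in BSA, and 362, 368 and 362 in BSA + luteolin. All 3 groups were apart, with luteolin between the others. The BSA ratio was 1.55 and the log2 ratio of BSA + luteolin to BSA -0.15. Prkar2a, a regulatory subunit of the cAMP-dependent kinase, was at 12.5, 15.4 and 14.3 CPM in Control, 26.5, 24.7 and 24.3 in BSA, and 19.7, 25.5 and 24.8 in BSA + luteolin. Vav2, an exchange factor for small GTPases, and Itpr3, a calcium channel of the endoplasmic reticulum, were near the lower edge, with log2 ratios of BSA + luteolin to BSA of -0.25 and -0.21. Bik, a BH3-only cell death protein, had 0.619 to 1.1 CPM in Control, 1.11 to 1.32 in BSA and 1.52 to 2.29 in BSA + luteolin, with a log2 luteolin ratio of 0.63. Gadd45b, a stress sensor, was at 25.6, 17.2 and 15.7 CPM in Control, 40.9, 32.2 and 35.2 in BSA, and 40.1, 34.1 and 34.9 in BSA + luteolin.

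Transcription and chromatin held 15 members. E2f1, a factor of S-phase entry, was at 59.4, 26.1 and 27.1 CPM in Control, 66.1, 67.5 and 65.9 in BSA, and 68.2, 74.9 and 72.6 in BSA + luteolin. Its 3 luteolin libraries were above all BSA libraries, and Control 1 was near BSA. Its partner Tfdp1 was at 111, 87.2 and 90.8 CPM in Control and at 143, 157 and 142 in BSA. Mybl2, a factor of the cell cycle, was at 38.3, 17.6 and 25 CPM in Control and at 44.3, 48.4 and 43.4 in BSA. E2f1 was the only member among 24 tested S-phase genes, of which 2 were higher in BSA. Of all 11569 tested genes, 601 were higher in BSA and 143 were members. Atf1 was at 49.4, 62.2 and 62.8 CPM in Control, 89.4, 84.8 and 90.0 in BSA, and 71.4, 75.9 and 75.9 in BSA + luteolin. Its Control 1 was the lowest Control library, unlike in most members. Rif1, of replication timing and DNA repair, was at 44.8, 49.1 and 55.3 CPM in Control and at 85.4, 79.9 and 84.4 in BSA.

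Members of RNA handling, translation and protein turnover numbered 18. Eif4e, the cap-binding translation factor, was at 121, 86.9 and 82.7 CPM in Control, 163, 164 and 155 in BSA, and 141, 134 and 135 in BSA + luteolin, where no library reached BSA. Larp1, a regulator of ribosomal protein mRNAs, was at 156, 120 and 138 CPM in Control, 205, 209 and 207 in BSA, and 185, 201 and 201 in BSA + luteolin. Polr1a, the largest subunit of RNA polymerase I, and Utp20, of ribosome assembly, were the 2 members among 24 tested genes of ribosome biogenesis, of which 5 were higher in BSA. Over all 11569 tested genes 601 were higher in BSA and 143 were members. Polr1a was at 67.4, 36.8 and 35.8 CPM in Control and 78.0, 74.3 and 71.8 in BSA, and Utp20 was at 47.6, 26.0 and 32.8 in Control and 53.1, 58.5 and 51.5 in BSA. Naa50, an N-terminal acetyltransferase, was at 100.2 to 105.5 CPM in Control, 178, 157 and 174 in BSA, and 149, 151 and 165 in BSA + luteolin.

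Metabolism and mitochondria held 20 members. Papss2, which makes the sulfate donor used for heparin in mast cell granules, was at 685, 497 and 526 CPM in Control, 893, 945 and 861 in BSA, and 923, 888 and 890 in BSA + luteolin. Its log2 ratio of BSA + luteolin to BSA was 0.00, and the 2 stimulated groups overlapped. Aldh1l2, a mitochondrial folate enzyme, was at 3.73, 0.442 and 1.15 CPM in Control, 5.42, 5.49 and 4.47 in BSA, and 2.40, 5.66 and 5.53 in BSA + luteolin, where 1 library stood below the others. Acaca, which commits acetyl-CoA to fatty acid synthesis, was at 29.3, 18.0 and 22.9 CPM in Control and 36.5, 38.2 and 38.0 in BSA.

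Of 11 membrane transport members, Atp2a2, the SERCA2 calcium pump, was at 366, 232 and 273 CPM in Control, 493, 460 and 483 in BSA, and 395, 417 and 413 in BSA + luteolin. Clic4, a chloride channel protein, was at 106, 89.7 and 93.5 CPM in Control, 156, 153 and 155 in BSA, and 122, 131 and 139 in BSA + luteolin. In both, luteolin lay between Control and BSA. The zinc transporters Slc39a6 and Slc39a11 had all luteolin libraries above BSA, with 80.1, 85.2 and 82.6 against 73.4, 70.0 and 73.5 CPM for Slc39a6 and 41.5, 45.5 and 43.4 against 37.4, 37.0 and 36.4 CPM for Slc39a11. The members of cytoskeleton and vesicles numbered 13. Aif1l, an actin-binding protein of this set, and Syde2, a GTPase-activating protein among the signalling members, had BSA ratios of 2.17 and 2.01, with 1.21 and 1.24 against Control 1 and 3.61 and 2.93 against the mean of Control 2 and 3. The remaining 15 members were given no role.

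The rule used the same libraries as the tests over all genes, so the members past the threshold are given as counts from which nothing is read. edgeR's quasi-likelihood test (adjusted p under 0.05) called 23 members (16.1%) higher in BSA than in Control, against 2.26% of all tested genes and 50.4% of the other genes higher in BSA. Ccrl2, Rap1b, Gpr65, Cybb, Naa50, Papss2, Itga4 and Tfdp1 were among the 23. Without Control 1 the test called 122 members, in a fit that called 2617 of the 11569 tested genes higher, and in fits without any other single library of this comparison it called 1, with 87 to 123 genes called higher over all. DESeq2 called 65 members and 596 genes higher.

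Between BSA + luteolin and BSA, edgeR called 4 members (2.80%) higher, Sik1, Gpr65, Ccrl2 and Slc39a11, against 18.1% of all tested genes. It called 22 members (15.4%) lower, among them Atf1, Eif4e, Atp2a2, Clic4, Rap1b and Itga4, against 21.7% of all tested genes and 93.0% of the other genes higher in BSA. The rule allowed these 22 because their log2 ratios were no lower than -0.25. Without BSA 1 it called 3 members higher and 11 lower, in a fit with 1329 and 2032 such genes over all, and without BSA + luteolin 1 it called 3 and 12, with 1208 and 2032 over all. With all 9 libraries in 1 fit it called 1 member higher and 0 lower, with 174 and 911 genes over all. All 3 luteolin libraries were above all BSA libraries for 10 members, against 29.4% of all tested genes, and below them for 23, against 22.4%. The 10 were Sik1, Bik, Gpr65, Ccrl2, E2f1, Dpp4, Gpm6a, Bag2, Slc39a6 and Slc39a11.

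Between BSA + luteolin and Control, edgeR called 11 members (7.69%) higher, against 0.285% of all tested genes, among them Ccrl2, Gpr65, Sik1, Cybb, Naa50 and Papss2. For 122 members all 3 luteolin libraries were above all 3 Control libraries, against 18.5% of all tested genes and 13.8% of the other genes higher in BSA. Without Control 1 edgeR called 120 members in this comparison, in a fit that called 3461 of the 11569 tested genes higher. Without Control 2, Control 3 or BSA + luteolin 3 it called 1 member in each case, with 3 or 4 genes called higher over all. Without BSA + luteolin 1 or 2 it called 0 members and 0 genes higher over all, with 5 and 2 genes called lower. At an unadjusted p under 0.05 in either direction those fits had 68 and 74 members and 1465 and 1401 of all tested genes. On all 6 libraries DESeq2 called 53 members and 351 genes higher, and limma called 12 members and 35 genes.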

How the data were processed

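RNA libraries were prepared from BMMCs with a stranded mRNA kit. Reads passed HTStream before alignment to mm10 by STAR 2.7.0f, and the authors deposited a table of raw counts by Ensembl gene, without normalization. The annotation release and strand setting were not given in the sources used here. Groups came from the sample labels. CPM values were computed with TMM factors over all 9 libraries, and those with a median above 1 entered tests in R 4.3.3 by edgeR 4.0.16 (quasi-likelihood, two-sided, Benjamini-Hochberg adjustment over 11569 genes, threshold 0.05) on the 6 libraries of each comparison. limma 3.58.1, DESeq2 1.42.0, other scalings, other thresholds of the rule and each library left out were alternatives. The code was tested on simulated data. Depth was 9515004 to 24605689 counts per library. No replicates held the same library. The members and gene lists were chosen with earlier results of these data known, and TMM factors from tested genes alone were added as an alternative after seeing the data. Genes named were those with the highest ratio (mean BSA of at least 5 CPM), the highest BSA mean, the highest or lowest luteolin ratio, those in the lists, those nearest each threshold and 5 contrast genes. Other members named were chosen after their values were seen, and a few genes that met the rule are not reported here. Coordinates are from GENCODE (GRCm38) and promoters from RefSeq (GRCm38.p6).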

Additional observations from a re-analysis of the deposited data

How the results depend on the processing

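The 143 members depended on the rule and the scaling. Other scalings gave 42 members with library size alone (37 of them shared), 78 with upper-quartile factors and 102 with DESeq2 size factors. The median log2 ratio of BSA to Control over all genes was 0.07 with TMM and -0.15 with library size, and that of BSA + luteolin to BSA was 0.06 and 0.13. A ratio of at least 2 left 24 members, a luteolin ratio at or above 0 left 58, one at or above -0.5 gave 215, and no condition on overlap gave 246. Leaving out each library gave 114 to 909 members, the latter without Control 1, with factors recomputed on the remaining libraries. The cause was not tested. For members called higher by BSA against Control (23, with 262 of all genes), DESeq2 gave 65 (596 of all genes), library size 5 (173), no filter 43 (413 of 22584), all 9 libraries in 1 fit 68 (677), the replicate block 1 (127), and leaving out each library 1 to 122 (87 to 2617). For BSA + luteolin against BSA (26 in both directions, with 2097 higher and 2516 lower of all genes), library size gave 14 (3850 and 1757), no filter 16 (2308 and 2623), all 9 libraries 1 (174 and 911), the replicate block 34 (2641 and 2935), and leaving out each library 14 to 30 (1208 to 2301 and 2032 to 2768). For BSA + luteolin against Control (11, with 33 higher of all genes), DESeq2 gave 53 (351), no filter 34 (105), all 9 libraries 58 (361), the replicate block 2 (13), and leaving out each library 0 to 120 (0 to 3461). The main tests did not use replicate numbers as pairs. Correlations of same-numbered libraries ran from -0.323 to 0.378. Libraries of different numbers were not compared, so this range does not settle whether the numbers pair the samples. Of 1006 values of named members under the alternatives, 996 moved by less than the replicate spread and 10 moved further. Values near 0 can change sign within that spread, and not every such change was counted. A number of sign changes is therefore not given. The Il3 ratio to Control had no value from group medians or without Control 1, since its Control level was then 0. Depth limits members with few counts, such as Il3.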
